A study of Mus musculus with 12 samples.

Results

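The loss of β-catenin and the loss of Prmt1 in mouse blood stem and progenitor cells were compared gene by gene. The comparison was the log2 fold change of Bcat_KO over WT minus the log2 fold change of PRMT1_KO over WT_PRMT1, called the difference of changes here. It covered 16503 autosomal genes that passed a filter on low counts, of 51155 autosomal genes and 55471 genes of any chromosome in the count table. A further 560 tested genes on the sex chromosomes, the mitochondrial genome or scaffolds entered the fit but no count of genes.

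RNA was sequenced from LSK cells, which lack mature lineage markers and carry Sca1 and Kit, of primary transplanted mice 6 weeks after tamoxifen. In Bcat_KO β-catenin (gene Ctnnb1) was targeted, and WT was its control. In PRMT1_KO Prmt1 was targeted, and WT_PRMT1 was the wild type of that experiment. Each group had 2 libraries, so the 2 changes share no library. HOXA9_KO and dKO (β-catenin and Hoxa9 targeted together) entered only the estimate of spread. Titles say KO where the genotype field says knockdown. The sources used here do not give the Cre driver, the alleles, the strain, the age, any pooling of mice, or whether libraries came from separate mice. P-values thus measure spread between libraries that may be technical.

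β-catenin links cadherins to the cytoskeleton at cell contacts and, when Wnt signalling blocks its destruction, enters the nucleus and activates genes with Tcf and Lef factors. Prmt1 is the main enzyme that places asymmetric dimethyl marks on arginines, on histone H4 and on many RNA-binding proteins with arginine-glycine repeats. The LSK fraction holds the long-term stem cells and the multipotent and lymphoid-primed progenitors that give rise to all blood lineages. The series title names replication dynamics and stem cell function under β-catenin and Hoxa9, and Prmt1 as something they depend on.

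Libraries held 17592000 to 40554000 counts (to 5 digits). Prmt1 (ENSMUSG00000109324, chromosome 7, 44975989 to 44986568, GRCm38) was at 117.7 and 111.5 CPM (counts scaled to library size by TMM) in PRMT1_KO, against 283.0 and 292.4 in WT_PRMT1, and fell by 1.33 ± 0.07 (log2 ± SE, adjusted p = 1e-09). Ctnnb1 (ENSMUSG00000006932, chromosome 9, 120929216 to 120960507) was at 275.6 and 267.1 CPM in Bcat_KO, against 314.8 and 342.2 in WT, a change of -0.28 ± 0.07 (adjusted p = 0.017) whose call was lost without Bcat_KO S3 (0.0551), Bcat_KO S4 (0.107) or WT S2 (0.185). With library-size scaling that adjusted p was 0.0584. The sources used here do not say which exons were deleted, so whole-gene counts are a weak check of the Bcat_KO label. Kit and Ly6a, which encodes Sca1, were present in all 8 libraries (139.3 to 430.1 and 73.7 to 298 CPM). In both comparisons the knockout libraries carried Y-linked mRNA and the control libraries far less. The Y-linked Ddx3y was at 62.3 and 60.6 CPM in Bcat_KO against 1.88 and 2.87 in WT, and at 93.5 and 87.1 in PRMT1_KO against 0.792 and 1.80 in WT_PRMT1. Xist, made by the inactive X, was at 11.2 and 21.9 CPM in Bcat_KO against 182.2 and 163.2 in WT, and at 0.735 and 0.758 in PRMT1_KO against 202.2 and 169.9 in WT_PRMT1. Odorant and pheromone receptor genes, a class of sensory neurons, summed to 14.4 and 11.1 CPM in Bcat_KO against 160.2 and 121 in WT, and 80.4 and 72.5 in PRMT1_KO against 130 and 128.3 in WT_PRMT1. Sex-linked mRNA thus split knockouts from controls in both comparisons, so sex cannot be told apart from either loss, same-way changes included. The part of the odorant receptor signal in the results was not tested.

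The losses shared some changes and opposed each other in others, and most genes called in 1 of them were not called in the other. A call means an adjusted p under 0.05 (edgeR quasi-likelihood test, Benjamini-Hochberg over 17063 genes). In Bcat_KO 2837 autosomal genes were called (17.2%), of which 1245 rose (7.54%) and 1592 fell (9.65%). In PRMT1_KO 5376 were called (32.6%), of which 2748 rose (16.7%) and 2628 fell (15.9%). Called in both were 1316 genes, which are 46.4% of the Bcat_KO calls and 24.5% of the PRMT1_KO calls. Of these, 476 rose in both (2.88% of genes tested), 408 fell in both (2.47%), 165 rose in Bcat_KO and fell in PRMT1_KO (1.00%) and 267 fell in Bcat_KO and rose in PRMT1_KO (1.62%). The 884 same-way genes make up 67.2% and the 432 opposite genes 32.8% of those called in both. Since sex-linked mRNA split knockouts from controls alike in both comparisons, the same-way changes cannot be told apart from sex. Over all 16503 genes the 2 changes had the same sign in 55.8%, with Pearson's r of 0.177 and Spearman's rho of 0.164 across genes, which are not independent replicates.

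**Figure D1:**
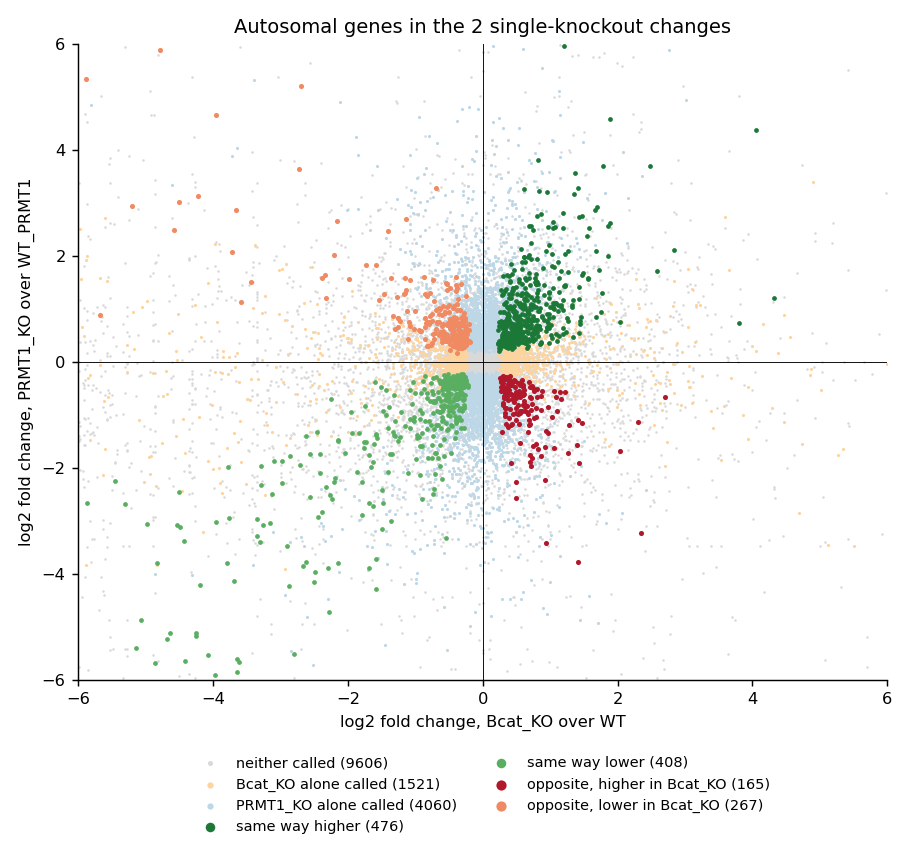
Each point is an autosomal gene, with its log2 fold change in Bcat_KO over WT on the x axis and in PRMT1_KO over WT_PRMT1 on the y axis, and colours give the calls. The 476 and 408 same-way genes fill the upper right and lower left, the 432 opposite genes the other corners, and 830 genes beyond 6 log2 units are not drawn.

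The difference of changes itself was called for 4191 genes (25.4%), 1897 of them higher (11.5%) and 2294 lower (13.9%). Higher here means that the Bcat_KO change lay above the PRMT1_KO change. All 432 opposite genes were called in it, as were 230 of the same-way genes, whose changes differed in size. Of the rest, 737 were called only in Bcat_KO, 2469 only in PRMT1_KO and 323 in neither change. With library-size scaling instead of TMM the median of all genes moved by 0.046 in the Bcat_KO change, by -0.14 in the PRMT1_KO change and by 0.186 in the difference. The share of higher calls then became 62.5% instead of 45.3% in the difference, 36.6% instead of 51.1% in PRMT1_KO, and 61.9% instead of 38.2% among opposite genes. No opposite gene became a same-way gene, and no same-way gene an opposite gene, in any setting tried. Without WT S1 the Bcat_KO calls became 1287, without WT S2 1269 and without Bcat_KO S4 1589. The opposite genes became 187, 217 and 242, and the same-way genes 467, 434 and 572, in these 3 fits, and the same-way genes became 586 without PRMT1_KO S9. The 165 genes opposite with a rise in Bcat_KO became 93, 65, 54 and 46 without Bcat_KO S3, Bcat_KO S4, WT S1 and WT S2, and 99, 93 and 99 without PRMT1_KO S8, WT_PRMT1 S10 and WT_PRMT1 S11. The 1897 higher differences became 1261 without WT S1.

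Most genes of DNA replication, recombination and mitosis fell in PRMT1_KO. In PRMT1_KO 50 of 59 DNA replication genes, 31 of 41 recombination, Fanconi and checkpoint genes and 44 of 49 mitosis genes fell, with median changes of -0.72, -0.85 and -1.17 against -0.028 over all autosomal genes, of which 15.9% fell. In Bcat_KO 4 replication genes rose and 4 fell, 6 recombination genes rose and none fell, and 3 mitosis genes rose and 1 fell, while 7.54% of all autosomal genes rose and 9.65% fell. There the medians were -0.065, 0.075 and -0.063 against -0.035 over all autosomal genes. The difference was called higher for 39, 28 and 38 of them and lower for none (28 became 18 without WT S1). In bulk RNA, here and for the cell type lists, fewer cells of a kind and less mRNA per cell cannot be told apart.

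Brca2 (chromosome 5, 150522630 to 150570329), which acts in repair of DNA breaks by homologous recombination, was the recombination gene with the smallest p in the difference. It was at 60.5 and 59.2 CPM in Bcat_KO against 37.2 and 35.4 in WT, and at 10.8 and 11.7 in PRMT1_KO against 45.2 and 43.5 in WT_PRMT1. Bcat_KO was above and PRMT1_KO below all 4 control libraries. It rose by 0.72 ± 0.12 in Bcat_KO (adjusted p = 0.00073) and fell by 1.97 ± 0.13 in PRMT1_KO (6.2e-09), a difference of 2.69 ± 0.18 (2.3e-08). Wdr90, a centriole and cilium protein, did the same, at 53.6 and 57.8 CPM in Bcat_KO against 30.4 and 28.3 in WT, and 9.07 and 8.34 in PRMT1_KO against 40.2 and 41.5 in WT_PRMT1 (difference 3.16 ± 0.19, 1.1e-08). No call of these 2 genes was lost in any fit without 1 library.

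The opposite genes of these lists were 6 recombination genes (Brca2, Exo1, Rad50, Rnf168, Mdc1 and Rbbp8), 4 replication genes (Rfc1, Ticrr, Timeless and Topbp1) and 3 mitosis genes (Cenpf, Mki67 and Kif20b), which rose in Bcat_KO and fell in PRMT1_KO. The 6 became 1 without Bcat_KO S4 and 2 without WT S1 or WT S2. The 4 became 1 or 2 in each fit without 1 of the 8 libraries. The 3 mitosis genes became 1 without Bcat_KO S4 and 0 without Bcat_KO S3, WT S1, WT S2, WT_PRMT1 S10 or WT_PRMT1 S11. Mdc1, which holds checkpoint proteins at DNA breaks, was at 68.8 and 76.45 CPM in Bcat_KO against 50.9 and 49.8 in WT, and 30.2 and 29.4 in PRMT1_KO against 54.05 and 50.8 in WT_PRMT1. Its rise of 0.53 ± 0.12 in Bcat_KO (adjusted p = 0.0070) was lost without Bcat_KO S4 (0.0667), WT S1 (0.0533) or WT S2 (0.0616). Mki67, the proliferation marker, was at 388.4 and 387 CPM in Bcat_KO against 176.1 and 144.4 in WT, and 92.3 and 177.5 in PRMT1_KO against 351.1 and 262.8 in WT_PRMT1. The PRMT1_KO libraries spanned both WT values, and the controls differed by 0.94 ± 0.32 without a call (adjusted p = 0.17).

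A few replication genes fell in both losses. They were Dut, Pcna, Rpa3 and Rrm2, a count of 4 that became 1 without Bcat_KO S4 and 2 without WT S2. The sliding clamp Pcna was at 441.8 and 437.4 CPM in Bcat_KO against 679.8 and 658.6 in WT, and 321.2 and 307.4 in PRMT1_KO against 654.2 and 639.4 in WT_PRMT1. It fell by 0.61 in Bcat_KO (adjusted p = 2.3e-05) and by 1.04 in PRMT1_KO (8.5e-09). Other members differed with a call in PRMT1_KO alone. Tyms, the thymidylate synthase, was at 94.3 and 98.75 CPM in Bcat_KO against 105.5 and 130 in WT, and 26.7 and 26.45 in PRMT1_KO against 129.8 and 141.5 in WT_PRMT1 (difference 2.07 ± 0.16, 1.4e-07). DNA ligase Lig1, the polymerase subunits Pold1 and Pole, the chromosome passenger Incenp and the condensins Ncaph and Smc2 likewise fell in PRMT1_KO (-1.23, -1.08, -1.13, -1.38, -1.78 and -1.15) with no call in Bcat_KO (0.10, 0.10, 0.13, 0.27, -0.08 and 0.05).

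The promoters of Brca2 and Mdc1 are shown because E2F factors are known to drive S-phase genes and the letters TTCCCGC of an E2F site, searched on both strands, stand in each of them. Windows run from 250 bases before to 50 bases after the RefSeq start on GRCm38.p6, in lower case with the letters found in capitals. They are chr5:150522371-150522670 (plus strand) for Brca2 and chr17:35841248-35841547 (plus strand) for Mdc1.
Brca2: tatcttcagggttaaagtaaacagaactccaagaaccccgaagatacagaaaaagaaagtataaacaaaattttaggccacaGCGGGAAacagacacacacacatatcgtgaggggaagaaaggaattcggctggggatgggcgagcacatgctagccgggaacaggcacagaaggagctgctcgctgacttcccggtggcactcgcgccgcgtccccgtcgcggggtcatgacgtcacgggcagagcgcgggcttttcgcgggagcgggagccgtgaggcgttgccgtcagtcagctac
Mdc1: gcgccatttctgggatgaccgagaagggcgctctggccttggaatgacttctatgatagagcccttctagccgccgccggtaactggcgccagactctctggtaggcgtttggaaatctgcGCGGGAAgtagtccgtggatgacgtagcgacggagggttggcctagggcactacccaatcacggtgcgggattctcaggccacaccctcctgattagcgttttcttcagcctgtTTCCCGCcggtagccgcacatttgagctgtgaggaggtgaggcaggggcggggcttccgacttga
These letters were found in 14.8% of 128 promoters of genes that rose in Bcat_KO and fell in PRMT1_KO, in 5.69% of 211 promoters of genes that did the reverse, and in 8.28% of 11346 promoters of all autosomal genes tested that had a window. They were in 36.7% of 49 replication, 40.0% of 30 recombination and 1 of 41 mitosis promoters (2.44%), and in 4.71% of all 25748 autosomal promoters. Of promoters of same-way genes 7.4% (higher) and 8.7% (lower) held them. A match is a description and not a site.

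Part of the genes of chromatin regulation and ribosome assembly rose in Bcat_KO, where 7.54% of all autosomal genes did, and in PRMT1_KO members were called in both directions, as were 16.7% (higher) and 15.9% (lower) of all autosomal genes. Of 47 Polycomb, MLL, Dot1l and DNA methylation genes 15 rose and 2 fell in Bcat_KO, against 9 and 10 in PRMT1_KO (7 and 16 with library-size scaling). The 15 became 9 without Bcat_KO S3, 8 without Bcat_KO S4, 8 without WT S1 and 7 without WT S2. Dnmt1, which copies DNA methylation at replication, was at 485.1 and 485.0 CPM in Bcat_KO against 288.5 and 284.6 in WT, and 194.1 and 218.3 in PRMT1_KO against 299.6 and 303 in WT_PRMT1. The control groups nearly coincided, with Bcat_KO above and PRMT1_KO below them. It rose by 0.76 ± 0.08 (adjusted p = 7.4e-06) and fell by 0.55 ± 0.08 (3.1e-05), a difference of 1.31 ± 0.11 (3.5e-07). Dot1l, the histone H3 lysine 79 methyltransferase, was at 110.9 and 100.1 CPM in Bcat_KO against 50.9 and 43.5 in WT, and 30.7 and 36.5 in PRMT1_KO against 59.4 and 50.7 in WT_PRMT1. It rose by 1.16 ± 0.13 and fell by 0.71 ± 0.13, a difference of 1.87 ± 0.18 (1.5e-06). Of 54 ribosome biogenesis genes 16 rose and none fell in Bcat_KO, and 10 rose and 13 fell in PRMT1_KO (3 and 20 with library-size scaling). The 16 became 9, 6, 5 and 5 without Bcat_KO S3, Bcat_KO S4, WT S1 and WT S2. The 10 became 6, 4 and 6 without PRMT1_KO S8, PRMT1_KO S9 and WT_PRMT1 S10, and the 13 became 7, 8 and 8 without PRMT1_KO S8, WT_PRMT1 S10 and WT_PRMT1 S11. The snoRNP protein Nop56 was at 184.5 and 197.8 CPM in Bcat_KO against 157.3 and 151.9 in WT, and 98.3 and 99.9 in PRMT1_KO against 167 and 171.7 in WT_PRMT1 (difference 1.08 ± 0.11, 3.9e-06). Its rise of 0.31 in Bcat_KO was lost without Bcat_KO S4 (0.163), WT S1 (0.0936) or WT S2 (0.139).

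RNA-binding proteins with arginine-glycine motifs, the class to which many Prmt1 substrates belong, differed between the losses in 13 of 24 cases upward and 2 downward. Over all autosomal genes the difference was higher for 11.5% and lower for 13.9%. In Bcat_KO 7.54% of them rose and 9.65% fell, and in PRMT1_KO 16.7% and 15.9%. In Bcat_KO 2 fell and 7 rose (4 rose without Bcat_KO S4 or WT S1), and in PRMT1_KO 11 fell and 3 rose (17 and 2 with library-size scaling). Taf15, a nuclear RNA-binding protein, was at 235.3 and 247.7 CPM in Bcat_KO against 226 and 213.5 in WT, and 78.5 and 103.7 in PRMT1_KO against 260.6 and 236.3 in WT_PRMT1 (difference 1.58 ± 0.16, adjusted p = 3.9e-06). Sfpq, Hnrnpu and Hnrnpr, nuclear RNA-binding proteins, fell in PRMT1_KO by 0.74, 0.57 and 0.83 and had no call in Bcat_KO (0.13, 0.20 and -0.01). Hnrnpu was called higher in Bcat_KO in 4 alternatives, namely library-size scaling (adjusted p = 0.0382), only the 8 libraries (0.0375), DESeq2 (0.0335) and limma-voom (0.0418). Of 14 arginine methyltransferases 2 rose and 2 fell in Bcat_KO, and 1 rose and 4 fell in PRMT1_KO. Among them 1 fell in Bcat_KO and rose in PRMT1_KO. Their summed CPM was 1448 and 1458 in Bcat_KO against 1938 and 1859 in WT, and 1702 and 1750 in PRMT1_KO against 1762 and 1681 in WT_PRMT1. Prmt7 fell in PRMT1_KO (-0.996 ± 0.11, 1.8e-06) and had no call in Bcat_KO (0.12 ± 0.10, 0.47).

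**Figure D2:**
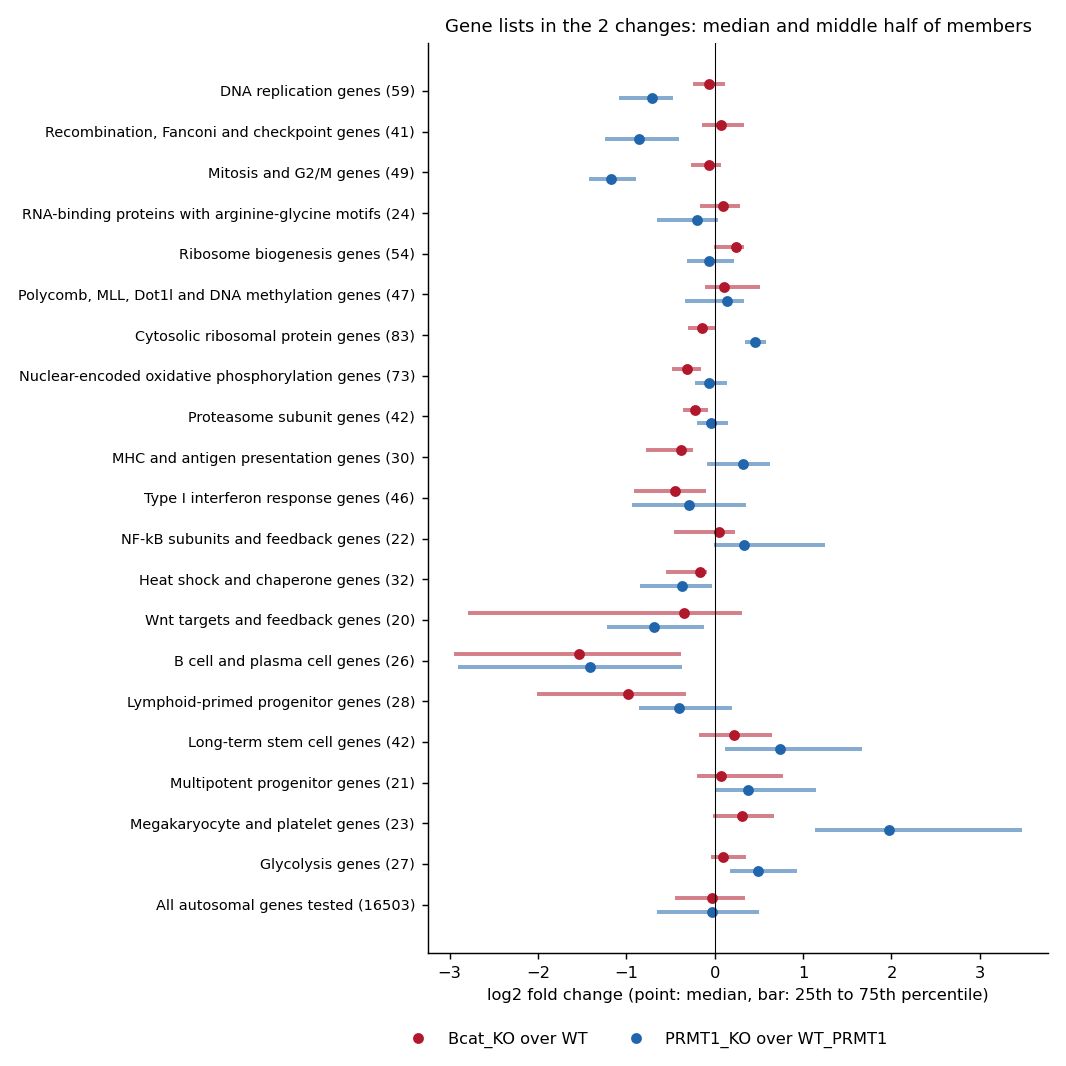
For each gene list the median (point) and the 25th to 75th percentile (bar) of its members' log2 fold changes are drawn for Bcat_KO over WT (red) and PRMT1_KO over WT_PRMT1 (blue), with the number of tested members in brackets. The bars of replication, recombination, mitosis, ribosomal protein and MHC genes lie on different sides or apart, and those of B cell genes overlap.

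Most ribosomal protein genes rose in PRMT1_KO, and part of them fell in Bcat_KO. In Bcat_KO 31 of 83 fell and 5 rose (median -0.14), and in PRMT1_KO 71 rose and none fell (median 0.45). The shares of all autosomal genes were 9.65% lower and 7.54% higher in Bcat_KO, and 15.9% lower and 16.7% higher in PRMT1_KO. The difference was lower for 67 and higher for 2, with a median of -0.61 against -0.040 over all autosomal genes. Of the latter 13.9% were lower and 11.5% higher. Library-size scaling, which moved the median of all genes, gave 24 lower and 6 higher in Bcat_KO, 61 higher and 1 lower in PRMT1_KO and 59 lower in the difference. Called lower in Bcat_KO and higher in PRMT1_KO were 30 of the 83, and 2 (Rpl29 and Rpl10a) rose in both, against 1.62% and 2.88% of all autosomal genes. The 31 that fell in Bcat_KO became 18 without Bcat_KO S3, 14 without Bcat_KO S4 and 13 without WT S1, and the 30 became 17, 13 and 12. The 5 that rose became 2 or 3 without each library of the Bcat_KO comparison, and the 2 became 0 or 1. Rps9, of the small subunit, was at 2130 and 2162 CPM in Bcat_KO against 3012 and 2845 in WT, and 4506 and 4016 in PRMT1_KO against 2650 and 2546 in WT_PRMT1. It fell by 0.45 ± 0.07 (adjusted p = 0.00033) and rose by 0.71 ± 0.07 (4.8e-07). Rpl13a, of the large subunit, was at 52.7 and 49.8 CPM in Bcat_KO against 85.0 and 85.7 in WT, and 218.3 and 189.1 in PRMT1_KO against 66.6 and 73.4 in WT_PRMT1 (difference -2.28 ± 0.14, 1.5e-08). In each gene the PRMT1_KO libraries were the highest and the Bcat_KO libraries the lowest of the 8. Ribosomal protein genes have many processed copies in the genome with which reads can be shared, so single members are uncertain.

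Many respiratory chain and proteasome genes fell in Bcat_KO, where 9.65% of all autosomal genes did. In PRMT1_KO the counts called were near or below the 15.9% of all autosomal genes that fell and the 16.7% that rose. Of 73 nuclear-encoded oxidative phosphorylation genes 36 fell and 1 rose in Bcat_KO (median -0.31), against 10 and 7 in PRMT1_KO (median -0.062). The 10 became 5 without PRMT1_KO S9 and 6 without WT_PRMT1 S10 or WT_PRMT1 S11, the 7 became 4 without PRMT1_KO S8, and with library-size scaling 24 fell and 4 rose. Cox7a2l, a factor of respiratory supercomplexes, was at 213.8 and 218.8 CPM in Bcat_KO against 314.8 and 322.6 in WT, and 553.3 and 510.8 in PRMT1_KO against 292.8 and 267.2 in WT_PRMT1 (difference -1.49 ± 0.11, adjusted p = 1.1e-07). Uqcrfs1 and Ndufa6, subunits of complexes III and I, fell in Bcat_KO by 0.44 and 0.54 and rose by 0.53 each in PRMT1_KO. Of 42 proteasome genes 18 fell in Bcat_KO, and 8 fell (5 without PRMT1_KO S9) and 6 rose in PRMT1_KO (2, 2 and 3 without PRMT1_KO S8, WT_PRMT1 S10 and WT_PRMT1 S11). The 18 became 9, 7, 11 and 3 without Bcat_KO S3, Bcat_KO S4, WT S1 and WT S2. The difference was lower for 13 and higher for 3 (7 and 5 with library-size scaling), with a median of -0.17 that became 0.017 with library-size scaling.

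Part of the antigen presentation genes fell in Bcat_KO, and of those called in PRMT1_KO most rose. Over all autosomal genes 9.65% fell in Bcat_KO, 16.7% rose and 15.9% fell in PRMT1_KO, and the difference was lower for 13.9%. Of 30 such genes 13 fell and none rose in Bcat_KO (median -0.38), and 14 rose and 6 fell in PRMT1_KO (median 0.33). The 13 became 4, 6, 7 and 4 without Bcat_KO S3, Bcat_KO S4, WT S1 and WT S2. The difference was lower for 17 and higher for 1. Summed over the list, CPM was 8634 and 8394 in Bcat_KO, below 11360 and 11770 in WT. In PRMT1_KO the sums of 12860 and 12110 spanned the WT_PRMT1 values of 12580 and 12570. There were 7 opposite genes (B2m, Gbp2, H2-D1, H2-Q4, H2-Q6, H2-T22 and H2-T23), which became 3, 4 and 3 without Bcat_KO S3, Bcat_KO S4 and WT S2. B2m, the light chain of MHC class I, was at 1517 and 1414 CPM in Bcat_KO against 2492 and 2641 in WT, and 2625 and 2429 in PRMT1_KO against 2042 and 2093 in WT_PRMT1. It fell by 0.81 ± 0.07 (adjusted p = 1.8e-06) and rose by 0.29 ± 0.07 (0.0045), a rise lost without PRMT1_KO S8 (0.0535) or with library-size scaling (0.0898). The interferon-induced GTPase Gbp2 was at 38.9 and 38.7 CPM in Bcat_KO against 56.3 and 64.9 in WT, and 74.8 in both PRMT1_KO libraries against 35.8 and 39.15 in WT_PRMT1 (difference -1.64 ± 0.17, 3.6e-06). The controls differed too, since Gbp2 was lower in WT_PRMT1 than in WT by 0.69 ± 0.12 (0.0014). H2-Q4 and H2-Q6, nonclassical class I genes, have near-identical relatives and are uncertain.

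The promoters of B2m and Gbp2 are shown because interferons are known to act on such genes through an interferon-stimulated response element, searched here on both strands. The windows are chr2:122147437-122147736 (plus strand) for B2m and chr3:142620413-142620712 (plus strand) for Gbp2, on GRCm38.p6 as above, with the letters found in capitals.
B2m: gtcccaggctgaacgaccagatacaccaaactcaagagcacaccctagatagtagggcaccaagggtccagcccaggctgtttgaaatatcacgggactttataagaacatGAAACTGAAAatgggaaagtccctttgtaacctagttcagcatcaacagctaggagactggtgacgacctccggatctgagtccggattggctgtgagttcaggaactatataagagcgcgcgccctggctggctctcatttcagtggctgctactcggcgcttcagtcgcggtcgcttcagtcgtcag
Gbp2: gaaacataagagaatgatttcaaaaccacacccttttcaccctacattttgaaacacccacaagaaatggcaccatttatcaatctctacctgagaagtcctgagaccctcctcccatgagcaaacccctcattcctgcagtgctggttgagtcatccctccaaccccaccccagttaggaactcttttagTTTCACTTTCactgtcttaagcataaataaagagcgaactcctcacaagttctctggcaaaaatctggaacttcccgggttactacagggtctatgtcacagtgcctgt
The letters were found in 6.64% of 211 promoters of genes that fell in Bcat_KO and rose in PRMT1_KO, in 3.12% of 128 of the reverse, and in 3.24% of those of all autosomal genes tested. Same-way promoters held them in 5.59% (lower) and 3.84% (higher). They were in 48.5% of 33 type I interferon and 6 of 24 antigen presentation promoters. Tcf/Lef letters (CTTTGAT or CTTTGAA) were in 3.12% and 5.21% of opposite promoters, higher and lower in Bcat_KO. For same-way promoters the shares were 4.11% (higher) and 7.14% (lower), against 6.15% of all tested.

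Type I interferon response genes had shared and opposite members. Over all autosomal genes 9.65% fell and 7.54% rose in Bcat_KO, and 15.9% fell and 16.7% rose in PRMT1_KO. In Bcat_KO 18 of 46 fell and 2 rose (11 fell without WT S1), and in PRMT1_KO 18 fell and 8 rose (5 rose without PRMT1_KO S9 or WT_PRMT1 S11). In both losses 8 fell (among them Ifi44, Oasl2, Irf7, Bst2, Cmpk2, Ifi27 and Ifi27l2a) and 4 fell in Bcat_KO but rose in PRMT1_KO (Trim25, Rsad2, Ifit2 and Ifit1), the 4 becoming 2 without WT S1, PRMT1_KO S9, WT_PRMT1 S10 or WT_PRMT1 S11. Irf7, a transcription factor of the interferon response, was at 10.6 and 16.6 CPM in Bcat_KO against 34.8 and 32.8 in WT, and 31.4 and 35.1 in PRMT1_KO against 79.5 and 65.3 in WT_PRMT1. Each knockout lay below its own control, and PRMT1_KO lay at the level of WT. Ifit1, which binds viral RNA, was at 4.76 and 1.56 CPM in Bcat_KO against 43.8 and 38.8 in WT, and 13.7 and 18.9 in PRMT1_KO against 3.96 and 3.78 in WT_PRMT1. Here the WT libraries stood apart from all others. In the NF-κB list the cytokine genes Tnf, Ccl3 and Ccl4 and the inhibitor Tnfaip3 were opposite, 4 genes that became 2 without Bcat_KO S3, Bcat_KO S4 or WT S1. Tnf was at 27.4 and 27.6 CPM in Bcat_KO against 69.0 and 54.0 in WT, and 156.8 and 186.5 in PRMT1_KO against 71.9 and 67.9 in WT_PRMT1 (difference -2.46 ± 0.24, adjusted p = 1e-05). The chemokine Ccl4 was at 37.6 and 41.6 CPM in Bcat_KO against 187.4 and 177.1 in WT, and 407.1 and 400.3 in PRMT1_KO against 103.2 and 96.15 in WT_PRMT1 (difference -4.22 ± 0.33, 8.1e-05). Of the 22 genes of that list 3 rose and 5 fell in Bcat_KO (1 rose without Bcat_KO S4 or WT S2, and 2, 2 and 3 fell without Bcat_KO S3, Bcat_KO S4 and WT S1), and 9 rose and none fell in PRMT1_KO.

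Txnip, which binds thioredoxin and restrains glucose uptake, had the smallest p in the difference of the long-term stem cell list. It was at 146.3 and 162.7 CPM in Bcat_KO against 435.8 and 415.4 in WT, and 558 and 572.2 in PRMT1_KO against 233.6 and 234.4 in WT_PRMT1. It fell by 1.46 ± 0.09 (adjusted p = 1.5e-08) and rose by 1.27 ± 0.09 (8.7e-09), and it was lower in WT_PRMT1 than in WT by 0.86 ± 0.09 (5e-06).

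**Figure D3:**
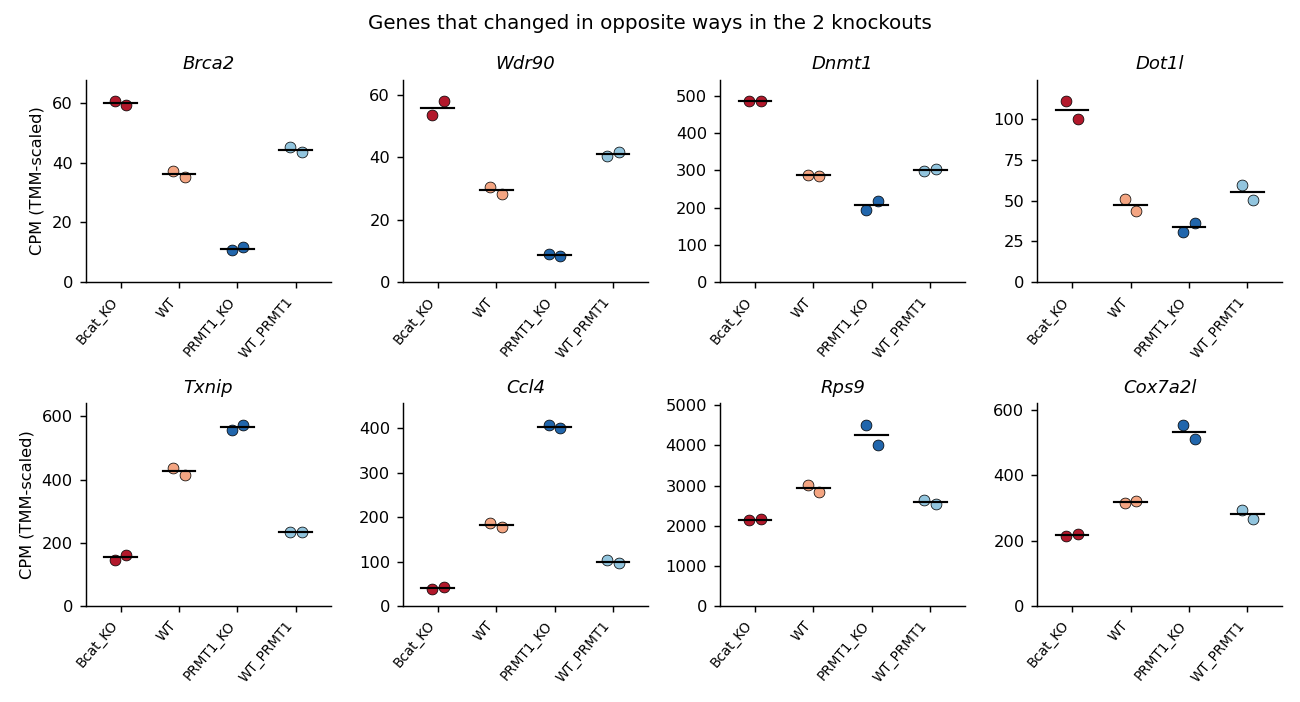
Each panel gives the TMM-scaled CPM of a gene on a linear axis from 0, with a point for each library and a bar for the mean of the 2 libraries of a group. Brca2, Wdr90, Dnmt1 and Dot1l are highest in Bcat_KO and lowest in PRMT1_KO, and Txnip, Ccl4, Rps9 and Cox7a2l the reverse.

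Part of the B cell lineage genes fell in both losses, while the abundant immunoglobulin genes had no call. Of 26 tested B cell and plasma cell genes 13 fell and 1 rose in Bcat_KO (median -1.54), and 14 fell and none rose in PRMT1_KO (median -1.42), against 9.65% and 15.9% of all autosomal genes that fell. The riser was Prdm1, a factor of plasma cells (1.42 ± 0.44, adjusted p = 0.033, lost without Bcat_KO S4, WT S1 or WT S2). The CPM summed over the list overlapped between each knockout and its control, at 10560 and 14090 in Bcat_KO against 6031 and 11330 in WT, and 8482 and 11090 in PRMT1_KO against 9079 and 9060 in WT_PRMT1. Ighm and Igkc, immunoglobulin chains that make up most of it, changed by 0.99 and 0.38 in Bcat_KO and by 0.70 and 0.68 in PRMT1_KO without a call. The 13 became 6, 5 and 4 without Bcat_KO S3, Bcat_KO S4 and WT S2, and the 14 became 8 without PRMT1_KO S8 or PRMT1_KO S9. In both losses 11 fell, among them Pax5, Ebf1, Cd79a, Cd79b and Vpreb3. The 11 became 6 without Bcat_KO S3, 4 without Bcat_KO S4 or WT S2 and 7 in each of the other fits without 1 library. The difference of changes was called for 1, the Ets factor Spib (-1.92 ± 0.46, adjusted p = 0.0087, lost without Bcat_KO S3, 0.0624, or Bcat_KO S4, 0.0673). Vpreb3, a chaperone of the pre-B cell receptor, was at 2.22 and 1.89 CPM in Bcat_KO against 67.6 and 78.1 in WT, and 2.57 and 2.05 in PRMT1_KO against 92.2 and 101.4 in WT_PRMT1. Its changes were -5.15 ± 0.71 (0.0054, lost without Bcat_KO S4, 0.0518) and -5.39 ± 0.73 (0.0017). Rag1, the recombinase of antigen receptor genes, was at 1.02 and 2.88 CPM in Bcat_KO against 36.5 and 39.1 in WT, and 0.490 and 1.25 in PRMT1_KO against 30.8 and 34.3 in WT_PRMT1. Its changes were -4.26 ± 0.60 (0.0035) and -5.17 ± 0.66 (0.00062), calls that held in every fit without 1 library. All 4 knockout libraries were low and all 4 control libraries high in both genes. The odorant receptor sum was also lower in each knockout than in its control, and its part was not tested. Igll1, the surrogate light chain, changed by -5.07 and -4.87, calls lost without PRMT1_KO S8 or S9 (0.0601 and 0.0623), and without Bcat_KO S3, Bcat_KO S4 or WT S2 (up to 0.0923, without Bcat_KO S4).

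Of 28 lymphoid-primed progenitor genes 16 fell and none rose in Bcat_KO, against 8 that fell and 3 that rose in PRMT1_KO (4 fell without PRMT1_KO S8 or PRMT1_KO S9), and the difference was lower for 10 and higher for 1. Over all autosomal genes 9.65% fell in Bcat_KO, 15.9% fell and 16.7% rose in PRMT1_KO, and the difference was lower for 13.9%. Summed CPM of the list overlapped between each knockout and its control. It was 8959 and 11940 in Bcat_KO against 6864 and 9846 in WT. In PRMT1_KO it was 7623 and 9844 against 7485 and 7685 in WT_PRMT1. Il7r, the interleukin 7 receptor, was at 3.49 and 3.77 CPM in Bcat_KO against 20.7 and 21.7 in WT, and 24.6 and 20.9 in PRMT1_KO against 31.1 and 30.7 in WT_PRMT1 (difference -2.10 ± 0.38, adjusted p = 0.00077). It fell by 2.54 ± 0.28 in Bcat_KO (2.8e-05) and had no call in PRMT1_KO (-0.44 ± 0.26, 0.22).

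CPM summed over the Wnt target and feedback list was 5235 and 5233 in Bcat_KO against 4541 and 4272 in WT, thus higher. In PRMT1_KO the sum was lower, at 2873 and 3195 against 4213 and 3819 in WT_PRMT1. Over all autosomal genes 9.65% fell and 7.54% rose in Bcat_KO, and 15.9% fell and 16.7% rose in PRMT1_KO. Among 20 known Wnt target and feedback genes 6 fell and 2 rose in each loss. Their median change was -0.35 in Bcat_KO and -0.69 in PRMT1_KO, against -0.035 and -0.028 over all autosomal genes. In Bcat_KO the sum and the median thus went in opposite directions, and a sum follows its most abundant members. Without Bcat_KO S4 or WT S2 only 3 fell in Bcat_KO, and the 2 that rose became 0 or 1 in fits without 1 library. In both losses 3 fell, Lef1, Tnfrsf19 and Nkd2 (1 without Bcat_KO S4), and Ccnd1 and Id2 were opposite, calls that did not hold without each library. Lef1, a partner of β-catenin on DNA, was at 0.191 and 0.566 CPM in Bcat_KO against 10.9 and 12.1 in WT, and 0 and 0.446 in PRMT1_KO against 13.0 and 13.2 in WT_PRMT1. Its changes were -4.87 ± 0.91 (adjusted p = 0.0087, lost without Bcat_KO S3, 0.0749, Bcat_KO S4, 0.0565, or WT S2, 0.0514) and -5.70 ± 1.01 (0.0023). Tnfrsf19, a TNF receptor family member, was at 0.191 and 0.0471 CPM in Bcat_KO against 3.66 and 6.76 in WT, and 0.123 and 0 in PRMT1_KO against 12.1 and 11.8 in WT_PRMT1, with the call in Bcat_KO lost without Bcat_KO S4 (0.0934). Ccnd1, cyclin D1, was at 56.7 and 44.5 CPM in Bcat_KO against 35.7 and 34.5 in WT, and 16.1 and 18.6 in PRMT1_KO against 34.7 and 33.9 in WT_PRMT1 (difference 1.51 ± 0.23, 0.00013). Its rise of 0.53 in Bcat_KO was lost without Bcat_KO S3 (0.231), WT S1 (0.125) or WT S2 (0.150). Myc rose in PRMT1_KO (0.75 ± 0.11, 2.9e-05) and was at 168.3 and 154.3 CPM in Bcat_KO against 163.5 and 162.2 in WT.

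Of 32 heat shock and chaperone genes 9 fell and 1 rose in Bcat_KO and 21 fell and 4 rose in PRMT1_KO, with 8 falling in both. Over all autosomal genes 9.65% fell and 7.54% rose in Bcat_KO, 15.9% fell and 16.7% rose in PRMT1_KO, and 2.47% fell in both. The 4 became 2 without PRMT1_KO S8, PRMT1_KO S9 or WT_PRMT1 S10. Hspa1b, the inducible Hsp70, was at 92.9 and 76.9 CPM in Bcat_KO against 927.2 and 772.9 in WT, and 3.80 and 3.39 in PRMT1_KO against 628.7 and 577.6 in WT_PRMT1. Its changes were -3.32 ± 0.24 (adjusted p = 0.00019) and -7.39 ± 0.30 (1.4e-06), a difference of 4.07 ± 0.34 (0.00016). Hspa1b has a near-identical neighbour, Hspa1a, with which reads can be shared.

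Rises were frequent among long-term stem cell genes and among megakaryocyte genes in both losses. Over all autosomal genes 7.54% rose in Bcat_KO, 16.7% in PRMT1_KO and 2.88% in both. Of 42 long-term stem cell genes 12 rose and 4 fell in Bcat_KO (median 0.22, 2 fell without WT S2), and 27 rose and 7 fell in PRMT1_KO (median 0.73). The 12 became 7, 6 and 7 without Bcat_KO S3, WT S1 and WT S2, and the 7 became 2 to 4 without any 1 of the 4 libraries of that comparison. In both losses 11 rose, which became 7, 6 and 7 without the same 3 libraries. Of 23 megakaryocyte and platelet genes 7 rose and none fell in Bcat_KO (median 0.31, 3 rose without WT S1), and 20 rose and none fell in PRMT1_KO (median 1.97). The difference of changes was lower for 20 stem cell and 16 megakaryocyte genes and higher for 5 and none. Of all autosomal genes 13.9% had a lower and 11.5% a higher difference. The controls differed in these lists, where WT_PRMT1 was lower than WT for 25 of 42 and 9 of 23 genes and higher for 3 and 1. Between the controls 3.90% of all autosomal genes were lower and 3.73% higher. Between the knockouts themselves, Bcat_KO was higher than PRMT1_KO for 15 stem cell genes and lower for 8 (median -0.031), while the median between WT_PRMT1 and WT was -0.68.

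Selp (chromosome 1, 164115264 to 164150026), the adhesion receptor P-selectin, was at 122.7 and 112 CPM in Bcat_KO against 28.8 and 34.4 in WT, and 133.2 and 144.9 in PRMT1_KO against 6.11 and 5.48 in WT_PRMT1. It rose by 1.89 ± 0.14 (adjusted p = 1.5e-06) and by 4.59 ± 0.16 (1.7e-10). The knockouts lay close together, and WT_PRMT1 was below WT, with a log2 difference of -2.45 ± 0.15 (2.9e-07). Kit, the stem cell factor receptor, was at 424 and 430.1 CPM in Bcat_KO against 271.2 and 268.9 in WT, and 330.3 and 307.5 in PRMT1_KO against 143.9 and 139.3 in WT_PRMT1. It rose by 0.66 ± 0.10 and 1.17 ± 0.10. Slamf1, the stem cell marker CD150, rose by 0.96 ± 0.24 in Bcat_KO (0.014, lost without any 1 of the 4 libraries of that comparison, up to 0.111 without WT S2) and by 3.20 ± 0.27 in PRMT1_KO (4.2e-07). Ly6a instead was opposite, at 73.7 and 74.3 CPM in Bcat_KO against 93.2 and 102.7 in WT, and 297.7 and 270.3 in PRMT1_KO against 99.6 and 86.9 in WT_PRMT1 (difference -2.01 ± 0.16, 3e-07). Its fall of 0.41 in Bcat_KO was lost without Bcat_KO S3 (0.0858), Bcat_KO S4 (0.0877) or WT S2 (0.164). Sca1 and Kit are gate markers, so their mRNA is not free of the sort.

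Of the largest same-way rises under the naming rule, Zbtb16, Ak1 and Tgfbr3 kept both calls in every fit without 1 library. Zbtb16, the transcription factor PLZF, was at 6.99 and 6.25 CPM in Bcat_KO against 1.57 and 2.27 in WT, and 13.3 and 18.1 in PRMT1_KO against 1.25 and 1.17 in WT_PRMT1. Ak1, an adenylate kinase, was at 11.4 and 14.5 CPM in Bcat_KO against 4.39 and 3.42 in WT, and 10.4 and 8.07 in PRMT1_KO against 2.49 and 3.06 in WT_PRMT1, a rise of 1.73 in both. Tgfbr3, a TGFβ co-receptor, rose by 1.69 ± 0.29 and 2.92 ± 0.32. Zg16 rose by 2.48 and 3.71 at 6.15 CPM or less. Cma1, Tmem252 and Wfdc2 rose too, with the call in Bcat_KO lost without WT S1 (0.107 and 0.0666 for Cma1 and Tmem252) or WT S2 (0.122, 0.0758 and 0.0561). Among the same-way falls were the globins Hbb-bs and Hba-a2 and the neurturin receptor Gfra2. Hbb-bs was at 4.16 and 2.38 CPM in Bcat_KO against 617.2 and 144.7 in WT, and 8.58 and 7.49 in PRMT1_KO against 323 and 280.4 in WT_PRMT1. Its calls were lost without Bcat_KO S3 (0.0534), Bcat_KO S4 (0.0739), PRMT1_KO S8 (0.0712) or PRMT1_KO S9 (0.0788). Hba-a2, which has a near-identical copy, lost its calls without Bcat_KO S3, Bcat_KO S4 or any library of the Prmt1 comparison (up to 0.164, without PRMT1_KO S9), and Gfra2 lost its call in Bcat_KO in every fit without 1 library (up to 0.159, without Bcat_KO S4) and in PRMT1_KO without PRMT1_KO S8 (0.0843) or S9 (0.0665).

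**Figure D4:**
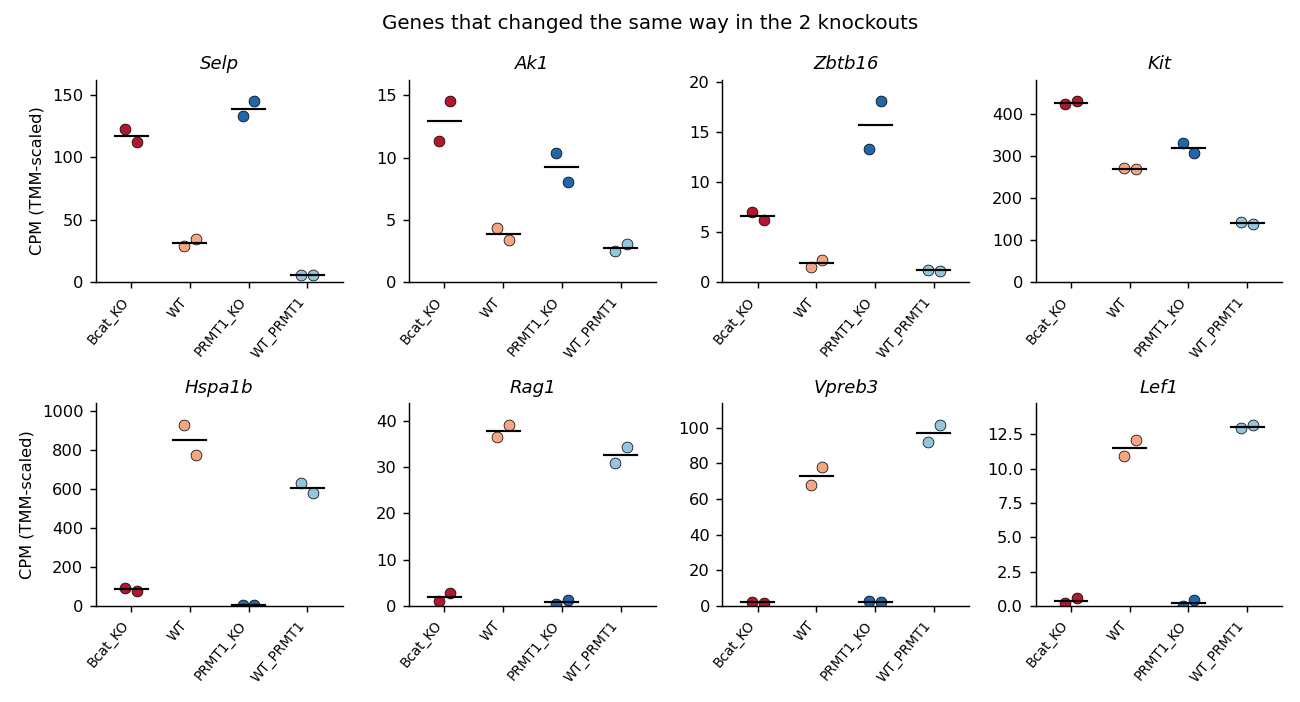
Each panel gives the TMM-scaled CPM of a gene on a linear axis from 0, with a point for each library and a bar for the mean of the 2 libraries of a group. Selp, Ak1, Zbtb16 and Kit are higher in both knockouts than in their own controls, and Hspa1b, Rag1, Vpreb3 and Lef1 lower.

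The largest opposite genes by size were mostly weakly expressed. Those higher in Bcat_KO were, beside Brca2 and Wdr90, Ptprf, Nsg1, Utp14b, Cep131, Pkmyt1 and Zgrf1. Ptprf, a receptor phosphatase, was at 18.4 and 21.35 CPM in Bcat_KO against 3.87 and 3.93 in WT, and 5.15 and 7.23 in PRMT1_KO against 60.9 and 55.4 in WT_PRMT1. It was higher in WT_PRMT1 than in WT by 3.90 ± 0.49 (adjusted p = 0.0018), and its call in Bcat_KO was lost without any 1 of the 4 libraries of that comparison (up to 0.124, without WT S2). Cep131, a centrosome protein, and Pkmyt1, which holds Cdk1 inactive, rose by 0.49 each in Bcat_KO and fell by 2.57 and 2.27 in PRMT1_KO. Without WT S2 the adjusted p in Bcat_KO was 0.221 for Cep131, 0.326 for Pkmyt1, 0.196 for Utp14b, 0.159 for Zgrf1 and 0.0671 for Nsg1. Without Bcat_KO S3 it was 0.126 for Cep131, 0.0684 for Pkmyt1, 0.0838 for Utp14b and 0.104 for Zgrf1, and without Bcat_KO S4 0.131, 0.146 and 0.139 for the first 3. Cep131 also lost it without WT S1 (0.129), and Cep131 and Utp14b in fits without a library of the other experiment (up to 0.0595). Utp14b lost its call in PRMT1_KO without PRMT1_KO S9 (0.0706), and since it overlaps another gene its reads are uncertain.

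Those lower in Bcat_KO had almost no counts there. Low counts were scarce across Bcat_KO as a whole. There 4450 and 3470 genes of the count table had 1 to 20 counts, against 9593 to 14310 in the other libraries compared. Yet the Bcat_KO libraries were the deepest, at 29944000 and 40554000 counts. The part of this scarcity in the 0 counts of single genes was not tested. Cldn5, a tight junction protein, had 0 counts in both Bcat_KO libraries against 3.14 and 1.94 CPM in WT, and 11.4 and 7.76 CPM in PRMT1_KO against 1.02 and 0.719 in WT_PRMT1. With both Bcat_KO libraries set to a joint floor of 3 counts, Cldn5 was at least 62.6-fold lower in Bcat_KO than in WT, and it rose by 3.46 ± 0.50 in PRMT1_KO (adjusted p = 5.3e-05). Ifnb1, interferon β, was at least 55.8-fold lower in Bcat_KO, and it was at 5.88 and 5.71 CPM in PRMT1_KO against 1.13 and 0.0899 in WT_PRMT1 (0.011, lost without WT_PRMT1 S11, 0.0552). Lipg, an endothelial lipase, was at least 18.3-fold lower, and at 8.82 and 7.14 CPM in PRMT1_KO against 0.679 and 1.53 in WT_PRMT1. Most deposited counts of 20 or less were even numbers, as when both mates of a pair are counted, in which case 3 counts hold fewer than 3 fragments and these bounds would be too high. Cyp4b1, Fxyd7, Crispld2, Lmcd1 and Ifitm6 stood at 0.236 CPM or less in Bcat_KO and at 6.02 to 46.8 in PRMT1_KO. Lmcd1 lost its call in Bcat_KO without WT S2 (0.110), and Ifitm6 lost both calls in most fits without 1 library (up to 0.178, without WT_PRMT1 S10). The odorant receptor signal was also lowest in Bcat_KO, and its part was not tested.

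Among the 16 largest differences of any kind were Ltf, Retnlg and Mmp9, genes of neutrophil granules with 0 counts in Bcat_KO, where low counts were scarce in general. Chil3 of the granulocyte list was also among them, and its difference lost the call with limma-voom (adjusted p = 0.174). That call was also lost without Bcat_KO S3, Bcat_KO S4, WT_PRMT1 S10 or WT_PRMT1 S11. CPM summed over that list was 2378 and 2303 in Bcat_KO, between the WT values of 3419 and 1706. Over all autosomal genes 9.65% fell in Bcat_KO, 16.7% rose in PRMT1_KO and 13.9% had a lower difference. Ltf, lactoferrin, had 0 counts in Bcat_KO against 208.8 and 52.1 CPM in WT, and was at 161.8 and 158.1 in PRMT1_KO against 96.7 and 104.2 in WT_PRMT1. It was at least 3214-fold lower in Bcat_KO than in WT, but that call was lost in all 8 fits without 1 library (adjusted p of 0.0646 to 0.108), with no filter (0.0571) and with limma-voom (0.415). The call of the difference was lost without each library but WT S2 (up to 0.105, without WT_PRMT1 S10), with no filter (0.0573) and with limma-voom (0.392). The Bcat_KO calls of Retnlg and Mmp9 were lost in the same 8 fits, with no filter (0.0795 and 0.0587) and with limma-voom (0.130 and 0.0678). Their differences lost the call without each library but WT S2 and, for Mmp9, PRMT1_KO S9. With no filter both differences lost it too (0.0711 and 0.0508), as did that of Retnlg with limma-voom (0.095). The granulocyte list had 10 of 28 genes lower and 3 higher in Bcat_KO, and 10 higher and none lower in PRMT1_KO (4 to 6 higher without any 1 of the 4 libraries of that comparison). The 10 that fell became 0 to 4 in each fit without 1 of the 8 libraries, and the 15 called lower in the difference 4 to 8 in all fits but that without WT S2. The differences of Socs2, Dynlt1b, Xcr1 and Chac1 kept the call in every fit without 1 library, though that of Chac1 was lost with limma-voom (adjusted p = 0.108). Socs2, a brake on cytokine signalling, was at 35.2 and 34.95 CPM in Bcat_KO against 25.9 and 26.9 in WT, and 12.3 and 10.5 in PRMT1_KO against 243.8 and 262.1 in WT_PRMT1. Its difference of 4.88 ± 0.23 (adjusted p = 7.9e-09) came with a gap of 3.26 ± 0.17 between WT_PRMT1 and WT (1.9e-08). Dynlt1b, a dynein light chain with near-identical copies, had 0 counts in PRMT1_KO, and Xcr1, a chemokine receptor of dendritic cells, was at 0.245 and 0.268 CPM there against 21.6 and 14.3 in WT_PRMT1. The matrix gene Col1a1 was at 144 and 313.3 CPM in WT_PRMT1 and at 2.93 CPM or less in the other 6 libraries, and its difference lost the call without Bcat_KO S4 (0.281), WT S2 (0.0593), PRMT1_KO S8 (0.0589) or PRMT1_KO S9 (0.0585).

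Other blood lineages differed too. For scale, 7.54% of all autosomal genes rose and 9.65% fell in Bcat_KO, and 16.7% rose and 15.9% fell in PRMT1_KO. The difference was higher for 11.5% and lower for 13.9% of them. Of 29 erythroid genes 14 fell and none rose in Bcat_KO (8 without Bcat_KO S4, 9 without WT S1), and 10 rose and 7 fell in PRMT1_KO (3 or 4 fell without any 1 of the 4 libraries of that comparison). The difference was lower for 16 and higher for none. Rhag, a red cell membrane protein, was at 1.27 and 0.990 CPM in Bcat_KO against 6.22 and 3.89 in WT, and 26.5 and 28.01 in PRMT1_KO against 4.08 and 4.50 in WT_PRMT1. Of 19 mast cell and basophil genes 3 rose in Bcat_KO (1 without WT S1 or WT S2) and 13 rose in PRMT1_KO, with none lower in either and a lower difference for 10 (6 without WT_PRMT1 S11). Of 27 glycolysis genes 4 rose and none fell in Bcat_KO, against 15 that rose and 2 that fell in PRMT1_KO.

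Since the 2 changes use different controls, a difference can come from the knockouts or from the controls. WT_PRMT1 and WT differed in 1260 genes (7.63%), 616 higher (3.73%) and 644 lower (3.90%). Of the 4191 genes called in the difference, 511 (12.2%) had a call between WT_PRMT1 and WT of the same sign, and 124 one of opposite sign. Bcat_KO and PRMT1_KO differed directly in 6543 genes (39.6%), with 3026 higher in Bcat_KO (18.3%) and 3517 lower (21.3%), which covers 3647 of the 4191 with the same sign and 29 with the opposite sign, and leaves 515 without a call. Of the opposite genes 21.1% were also called between the controls. The direct comparison of the knockouts, which uses no control, was higher in Bcat_KO for 41 of 59 replication, 29 of 41 recombination and 41 of 49 mitosis genes and lower for none, and lower for 68 of 83 ribosomal protein genes and higher for 2. That comparison runs across the 2 experiments, so a difference between experiments cannot be told apart in it from one between the losses.

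**Figure D5:**
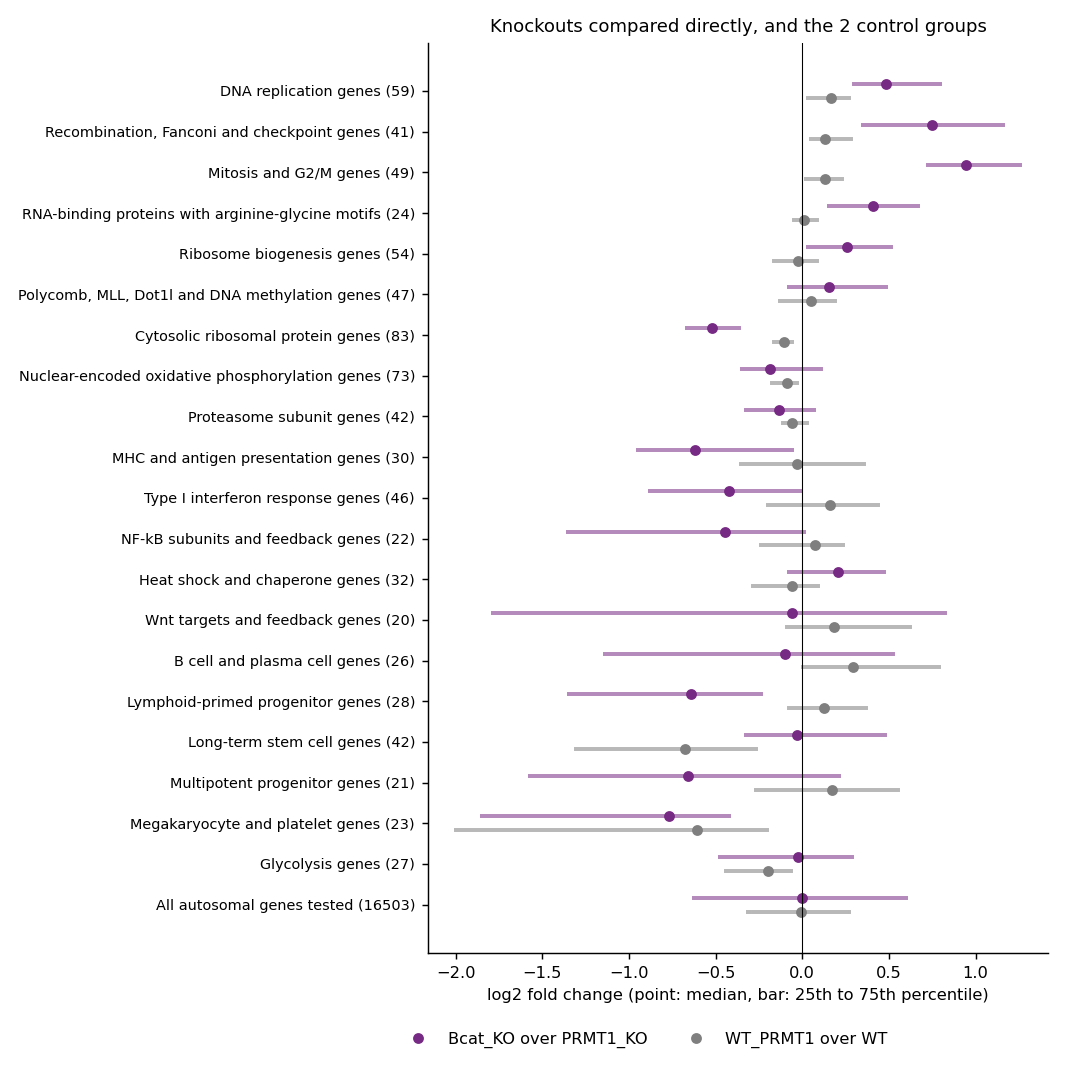
For each gene list the median (point) and the 25th to 75th percentile (bar) of its members' log2 fold changes are drawn for Bcat_KO over PRMT1_KO (purple) and for WT_PRMT1 over WT (grey). Both comparisons run across the experiments. For replication, recombination, mitosis and ribosomal protein genes the knockouts lie apart and the controls close to 0, whereas for long-term stem cell genes the controls lie apart (median -0.68) and the knockouts at -0.031.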

How the data were processed

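Gene counts were made by the authors and deposited as whole-number counts per gene. The submitters' processing notes name Trim Galore 0.6.6, STAR 2.7.6a, featureCounts and GRCm38/mm10. The sources used here do not give the annotation release or strand setting. Columns named control were read as WT, and their S tags name libraries here. Counts were filtered in edgeR 4.0.16 (R 4.3.3) with filterByExpr (minimum count 10), leaving 17063 genes, scaled by TMM and fitted with a robust quasi-likelihood model over 12 libraries with a mean per group (6 residual degrees of freedom). P-values were adjusted over all genes (Benjamini-Hochberg). SE is the absolute log2 change over the square root of F. Genes named for size were protein coding, and had 2 CPM or more on average in the 8 libraries, with knockouts separated from their controls, the 8 largest per direction (opposite, same way, difference), plus up to 4 members of each list with the smallest p in the difference, and Ctnnb1, Prmt1, Xist and Ddx3y. Other members were named after their values were seen, where a count was small. The members and gene lists were chosen with earlier results of these data known. Coordinates matched GENCODE M21 for 54937 of 55471 genes. Promoters, 1 per gene, came from RefSeq (GRCm38.p6), with Python 3.11.15 and pandas 2.3.3. The letters CACGTG (E-box) and TGACTCA (AP-1) were searched too, and their shares are not reported here. Figures used matplotlib 3.10.9. Counts of 16136 genes were simulated with 25 genes changed per kind and size, far fewer than were called in the data. In them 44% of opposite genes with a log2 change of 1 in each loss were recovered and 84% at 2. For same-way genes these shares were 52% and 84%. The difference was called for 32% of genes changed by 1 in Bcat_KO alone and for 20% of those in PRMT1_KO alone, and no unchanged gene was placed in either class. Intervals of SE cover spread between libraries, and the floor of 3 counts covers counting error only. Alternatives were RLE and library-size scaling, TMM without mitochondrial, haemoglobin and sex-chromosome genes, no filter, a mean of 5 CPM, only the 8 libraries, DESeq2 1.42.0, limma-voom (limma 3.58.1), each library left out and, added after seeing the data, edgeR without the robust option. Some named members are not reported here.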

Additional observations from a re-analysis of the deposited data

How the results depend on the processing

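The total counts of calls stayed within 1.5 times their value in every alternative that kept all libraries of the 4 groups, but their directions did not. With library-size scaling the opposite genes were 266 higher and 164 lower in Bcat_KO (165 and 267 with TMM). With only the 8 libraries 410 were lower, and 1011 genes (984 with DESeq2) instead of 616 were higher in WT_PRMT1 than in WT. With limma-voom 409 instead of 644 were lower there. With a mean of 5 CPM the genes lower in Bcat_KO were 1040 instead of 1592. Leaving out 1 library gave 3060 to 3941 genes for the difference of changes, 1269 to 2531 for Bcat_KO, 3859 to 5608 for PRMT1_KO, 434 to 698 changed the same way, 187 to 337 changed in opposite ways, 620 to 1371 between WT_PRMT1 and WT, and 4617 to 6179 between the knockouts. The calls between WT_PRMT1 and WT became 623 and 663 in fits lacking WT S1 or WT S2, and 645 and 620 in fits lacking WT_PRMT1 S10 or WT_PRMT1 S11. Of the 432 opposite genes 176 (without WT S1) to 431 (DESeq2) stayed opposite, and of the 884 same-way genes 421 (without WT S2) to 877 (TMM without mitochondrial, haemoglobin and sex-chromosome genes). For single genes, no called change turned its direction, 450 calls were lost and 81 gained over all alternatives, and 8563 values kept their side. Leaving out a library of a pair leaves an arm with 1 library, which is assumed to vary like the other groups. With library-size scaling the opposite ribosomal protein genes became 19 and the antigen presentation genes 5. No paired analysis was possible because the columns carry S tags and no replicate number of the labels. With 2 libraries a group, small changes can lie below detection. The simulated recovery does not give that share for these data. It changed far fewer genes than were called here, which makes the adjusted p stricter.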
